A study of Mus musculus with 7 samples.

Results

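Interferon-stimulated genes are the genes that cells switch on when interferon reaches them, and 36 of them, chosen by name as widely used members of the type I and interferon-gamma responses, are described here in the thymus of mice without RelB. Of the 36 genes, 34 had at least 1 probe on the array (56 probes in all), and 27 passed the detection filter among 9569 genes that did. Probes were found by gene symbol, and the genes were chosen with earlier results of these arrays known. Thymus RNA from mice aged 8 weeks was measured on Illumina bead arrays, 1 mouse per array, for 3 RelB-/- mice and 4 RelB+/- mice. The RelB+/- mice, which carry 1 working allele, are called "wt" in the sample titles, so every difference below is between no copy and a single copy of the gene. All 7 arrays lay on 1 chip with the genotypes alternating along its positions A to G. The sources used here state neither strain nor sex, nor which part of the gene was disrupted.

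Type I interferons bind a shared receptor whose kinases activate the factor ISGF3, which includes STAT2 and IRF9 and binds the interferon-stimulated response element (ISRE) in promoters. Interferon-gamma uses another receptor and acts through the gamma-activated site (GAS). The products sense foreign nucleic acid, block virus replication or restrain the response itself, and in mice the thymus is known for interferon signalling without infection, with medullary epithelium as a known source. RelB is a subunit of NF-kB, and mice without it are known to lack most of the mature medullary epithelium.

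The letters of the elements through which interferon acts were searched in the promoters, and whether a match works was not tested. From the promoters with an ISRE match, 5 stretches of 60 bases are shown. They belong to genes whose differences had opposite signs or lay near 0, none of them called. They were read 5′ to 3′ from RefSeq windows of GRCm38.p6 and lie wholly upstream of the start site, with capitals marking matches to GAAANNGAAA, the ISRE letters searched, on either strand. Isg15 is shown from chr4:156200850-156200909 (minus strand), Ifit3 from chr19:34583382-34583441 (plus), Igtp from chr11:58199496-58199555 (plus), Rsad2 from chr12:26456538-26456597 (minus) and Gbp2 from chr3:142620579-142620638 (plus).
Isg15: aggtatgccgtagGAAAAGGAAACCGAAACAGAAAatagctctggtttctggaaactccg
Ifit3: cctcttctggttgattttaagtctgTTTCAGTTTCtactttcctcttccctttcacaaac
Igtp: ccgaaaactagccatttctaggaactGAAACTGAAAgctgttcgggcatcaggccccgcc
Rsad2: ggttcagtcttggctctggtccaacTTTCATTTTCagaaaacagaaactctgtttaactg
Gbp2: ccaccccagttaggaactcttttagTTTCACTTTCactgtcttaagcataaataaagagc
In the Isg15 stretch 3 matches overlap each other, and the other stretches hold 1 each.

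Windows from 250 bases before to 50 bases after a start site were available for 25 of the 36 genes. An ISRE match stood in 14 of their 30 windows (46.7%), against 1131 of all 32851 windows (3.44%). TTCNNNGAA, the GAS letters, stood in 6 of the 30 windows (20.0%), against 2726 of all windows (8.3%), and 0 of these 6 matches overlapped an ISRE match. ISRE matches were found among lower, higher and other genes, but few genes could be compared. Among the measured genes with a window, 2 of 3 that were lower at an unadjusted p under 0.05 held an ISRE match, as did the 1 that was higher, and so did 6 of the other 14. No window was given for Dhx58, Zbp1, Oas2, Mx1, Mx2, Iigp1, Usp18, Parp9, Parp14, Ifi27l2a and Rtp4. Among these, Usp18, Ifi27l2a and Dhx58 were also lower at an unadjusted p under 0.05, and the comparison leaves them out.

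Median raw intensity was 103.5 to 142.3 per array, and 11785 to 12705 probes per array were detected above background. The Relb probe had raw intensities of 102, 118 and 121 in RelB-/- thymus, against 223, 180, 253 and 308 in RelB+/- thymus. Only the RelB+/- arrays were above background, so the fall in RelB-/- thymus is a bound of at least 4.58-fold (limma adjusted p = 0.000168). Where the probe lies relative to the disruption is unknown. The summed linear level of 4 measured heart muscle genes was 17370 on RelB-/- 3 and 6227 on RelB+/- 2, against 223 to 308 on the other arrays. Counts and the values of the genes with the smallest p are given below without these arrays as well.

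Levels below are log2 intensities after background correction and quantile normalization, read from the brightest probe of a gene, and values are listed in the order of replicates 1 to 3 in RelB-/- thymus and 1 to 4 in RelB+/- thymus. A difference is RelB-/- minus RelB+/- on the log2 scale, with its standard error (SE) from limma's moderated test. A gene is called when its p, adjusted by the Benjamini-Hochberg method over all 9569 genes, is under 0.05. Each p-value covers only the spread between these mice. Because a whole organ was measured, fewer cells of a type and less RNA per cell cannot be told apart.

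None of the 27 measured interferon-stimulated genes was called, with 0 lower and 0 higher, whereas 63 of all 9569 genes (0.658%) were called lower and 10 (0.105%) higher. At an unadjusted p under 0.05, 6 of the 27 (22.2%) were lower, namely Usp18, Ifi27l2a, Ifit3, Dhx58, Irf7 and Isg15, against 6.28% of all genes, and 1 (3.7%), Igtp, was higher, against 6.81% of all genes. All RelB-/- arrays lay below all RelB+/- arrays for 6 of the 27 genes (22.2%), against 6.25% of all genes. The 6 were Dhx58, Ifit3, Irgm1, Usp18, Parp9 and Ifi27l2a. Parp9 was detected on 0 RelB-/- arrays and passed the filter through the RelB+/- arrays alone, so its place below was partly set by the filter. All RelB-/- arrays lay above all RelB+/- arrays for 1 gene (3.7%), Igtp, against 7.38% of all genes. Differences ran from -2.12 to 0.40, with 16 negative and 11 positive. Their median was -0.11, against 0.03 for all genes. At unadjusted p, the lower side thus held a larger share of these genes than of all genes, and the higher side a smaller one, while no single gene passed the adjusted threshold.

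**Figure D1:**
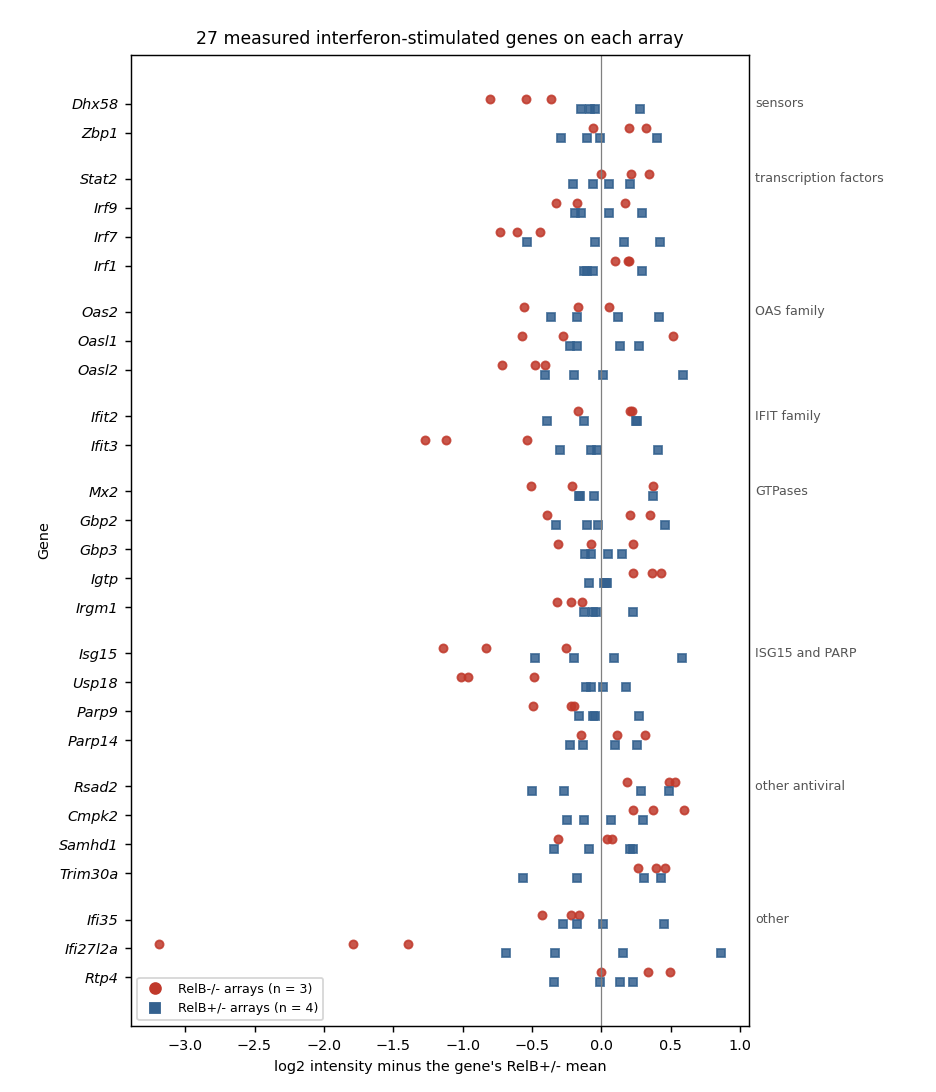
Log2 intensity of each of the 27 measured interferon-stimulated genes on each array, minus that gene's mean over the RelB+/- arrays (x axis), with genes grouped by role (y axis), circles for 3 RelB-/- arrays and squares for 4 RelB+/- arrays. Ifi27l2a has the widest gap. Its log2 levels before the subtraction were 7.35, 8.75 and 9.15 on RelB-/- arrays, against 9.85 to 11.40 on RelB+/- arrays. For most genes the 2 sets of symbols overlap.

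Among the nucleic acid sensors, Dhx58, the helicase LGP2 that tunes sensing of viral RNA, read 7.08, 7.26 and 6.82 in RelB-/- thymus, against 7.57, 7.89, 7.47 and 7.54 in RelB+/- thymus. The highest RelB-/- array stayed below the lowest RelB+/- array. Its difference was -0.57 (SE 0.17), with a limma adjusted p of 0.251. Zbp1, a sensor of Z-form nucleic acid that can start cell death, had overlapping groups and a difference of 0.15 (SE 0.19, limma adjusted p = 0.745). Ifih1, the RNA sensor MDA5, was detected on 0 of the 7 arrays.

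The transcription factors did not move together. Irf7, which drives the interferon-alpha genes, read 6.09, 5.93 and 5.80 in RelB-/- thymus, against 6.49, 6.70, 5.99 and 6.95 in RelB+/- thymus. RelB+/- 3 fell inside the RelB-/- range, and the difference was -0.59 (SE 0.23, limma adjusted p = 0.336). Stat2 and Irf9 encode subunits of ISGF3. Stat2 differed by 0.18 (SE 0.16, limma adjusted p = 0.619) and Irf9 by -0.11 (SE 0.18, adjusted p = 0.812), each with overlapping groups. Irf1, a factor strongly induced by interferon-gamma, read 12.15, 12.14 and 12.05 in RelB-/- thymus, against 12.24, 11.88, 11.84 and 11.82 in RelB+/- thymus. RelB+/- 1 was above every RelB-/- array while the other RelB+/- arrays were below, and the difference was 0.16 (SE 0.15, limma adjusted p = 0.642). The other 3 detected Irf1 probes had the opposite sign, at -0.11, -0.46 and -0.36, so no direction is given for Irf1.

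OAS proteins make the oligoadenylates that activate RNase L, and the OAS-like proteins are their relatives. Oasl2 read 6.86, 6.94 and 6.62 in RelB-/- thymus, against 7.35, 7.15, 6.94 and 7.93 in RelB+/- thymus. The groups met at RelB-/- 2 and RelB+/- 3, RelB+/- 4 was highest, and the difference was -0.53 (SE 0.23, limma adjusted p = 0.383). Without RelB+/- 4 it was -0.34. A further Oasl2 probe differed by -0.60. Oasl1, which in mice restrains translation of Irf7, read 5.16, 5.96 and 4.87 in RelB-/- thymus, against 5.27, 5.71, 5.57 and 5.21 in RelB+/- thymus. Here the RelB-/- arrays held both the highest and the lowest value of all 7 (difference -0.11, SE 0.26, limma adjusted p = 0.885). Oas2 differed by -0.23 (SE 0.23, limma adjusted p = 0.679). Oas1a was detected on 0 arrays. For Oas3, with 2 probes, 1 of 3 RelB-/- arrays passed detection and 0 of 4 RelB+/- arrays did.

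IFIT proteins bind viral RNA and hinder its translation. Ifit3 read 8.00, 8.73 and 8.15 in RelB-/- thymus, against 8.96, 9.19, 9.23 and 9.67 in RelB+/- thymus. Its groups were separate, with RelB-/- 2 nearest to the RelB+/- arrays, and the RelB-/- level was 0.509 times the RelB+/- level (difference -0.97, SE 0.23, limma adjusted p = 0.142). Its neighbour in the family, Ifit2, averaged 8.93 ± 0.22 (SD, n = 3) in RelB-/- and 8.85 ± 0.32 (SD, n = 4) in RelB+/- thymus (difference 0.09, SE 0.20, limma adjusted p = 0.879). A further Ifit2 probe differed by -0.13, so its sign depends on the probe. Ifit1 was detected on 0 arrays. The promoter stretch of Ifit3 shown above holds an ISRE match, and neither of the 2 Ifit2 windows holds the letters searched. Whether such matches bear on the differences of these genes was not tested.

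The interferon-inducible GTPases attack membranes that enclose microbes, or viral nucleocapsids in the case of the Mx proteins. Igtp, an immunity-related GTPase, read 11.37, 11.43 and 11.23 in RelB-/- thymus, against 11.02, 10.91, 11.04 and 11.05 in RelB+/- thymus. All RelB-/- arrays lay above all RelB+/- arrays, by a difference of 0.34 (SE 0.13, limma adjusted p = 0.323). Irgm1, a regulator of that GTPase family, read 10.95, 10.85 and 11.03 in RelB-/- thymus, against 11.05, 11.11, 11.40 and 11.13 in RelB+/- thymus. The groups were separate in the opposite direction, with a gap between RelB-/- 3 and RelB+/- 1 much smaller than the spread of either group (difference -0.23, SE 0.14, limma adjusted p = 0.508).

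Gbp2, a guanylate-binding protein, read 10.30, 11.05 and 10.90 in RelB-/- thymus, against 10.37, 10.59, 10.67 and 11.16 in RelB+/- thymus. The genotypes overlapped through nearly their whole range (difference 0.05, SE 0.24, limma adjusted p = 0.942). Gbp3 differed by -0.05 (SE 0.16, limma adjusted p = 0.913) and Mx2 by -0.12 (SE 0.23, adjusted p = 0.858), both with overlapping groups. Mx1 was detected on 0 arrays, as was Iigp1, an immunity-related GTPase with 2 probes.

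ISG15 is a ubiquitin-like protein that is attached to other proteins, and USP18 removes it and also dampens the type I receptor. Usp18 had the smallest p among the 27 genes. It read 8.87, 9.35 and 8.82 in RelB-/- thymus, against 9.72, 10.01, 9.76 and 9.85 in RelB+/- thymus. The groups were separate, the RelB+/- arrays lay close together (SD 0.13, n = 4), and the RelB-/- level was 0.566 times the RelB+/- level (difference -0.82, SE 0.17, 95% interval -1.21 to -0.44, limma adjusted p = 0.101). Both further probes of Usp18 were lower on average in RelB-/- thymus, by differences of -0.88 and -0.68.

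Isg15 read 8.81, 9.39 and 8.51 in RelB-/- thymus, against 9.45, 10.23, 9.74 and 9.17 in RelB+/- thymus. RelB-/- 2 exceeded RelB+/- 4, the lowest of its group, so the genotypes overlapped (difference -0.74, SE 0.29, 95% interval -1.41 to -0.08, limma adjusted p = 0.349). Its stretch above carries the 3 overlapping ISRE matches.

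Parp9, which acts in a complex with the ubiquitin ligase Dtx3l, read 4.57, 4.86 and 4.84 in RelB-/- thymus, against 5.01, 5.001, 4.89 and 5.33 in RelB+/- thymus. The groups were separate by a narrow gap, and only the RelB+/- arrays, 4 of 4, were above background. The bound of at least 1.09-fold lower in RelB-/- thymus is close to no difference (limma adjusted p = 0.450). Parp14, an ADP-ribosyltransferase, read 10.06, 10.27 and 9.80 in RelB-/- thymus, against 9.72, 10.05, 9.82 and 10.21 in RelB+/- thymus. The highest array was RelB-/- 2 and the lowest RelB+/- 1, with the groups mixed in between (difference 0.10, SE 0.18, limma adjusted p = 0.842). Dtx3l had no probe among those with a symbol, and neither had Ifi44, a protein of the same response.

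Of 4 remaining antiviral effectors, 3 had positive differences, and none of these was called. Cmpk2, a mitochondrial nucleotide kinase that neighbours Rsad2, read 6.42, 6.06 and 6.20 in RelB-/- thymus, against 6.13, 5.90, 5.58 and 5.70 in RelB+/- thymus. RelB+/- 1 lay above RelB-/- 2 and the other RelB+/- arrays below every RelB-/- array (difference 0.40, SE 0.17, limma adjusted p = 0.381). Rsad2, the enzyme viperin, which makes a chain-terminating nucleotide, read 8.29, 8.33 and 7.98 in RelB-/- thymus, against 7.53, 8.08, 7.30 and 8.28 in RelB+/- thymus. The RelB-/- arrays lay close together while the RelB+/- arrays spread widely (SD 0.19, n = 3, against 0.46, n = 4), and the difference was 0.40 (SE 0.25, limma adjusted p = 0.513). Trim30a, which in mice restrains Toll-like receptor signalling, read 5.74, 5.93 and 5.87 in RelB-/- thymus, against 5.30, 4.92, 5.79 and 5.91 in RelB+/- thymus. RelB+/- 2 was lowest and 2 RelB+/- arrays reached the RelB-/- level (difference 0.37, SE 0.24, limma adjusted p = 0.529). Samhd1, which degrades deoxynucleotides, differed by -0.07 (SE 0.19, limma adjusted p = 0.906).

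Ifi27l2a, a small membrane protein of the ISG12 family, had the widest difference of the 27 genes. It read 7.35, 8.75 and 9.15 in RelB-/- thymus, against 9.85, 10.21, 10.70 and 11.40 in RelB+/- thymus. No RelB-/- array reached the RelB+/- range, yet the values within each genotype spread more than those of the other 26 genes (SD 0.94, n = 3, and SD 0.67, n = 4). The RelB-/- level was 0.229 times the RelB+/- level, a difference of -2.12 (SE 0.48, 95% interval -3.22 to -1.03, limma adjusted p = 0.129). Ifi35, a regulator of interferon signalling, differed by -0.27 (SE 0.19, limma adjusted p = 0.572), and Rtp4, a chaperone of membrane receptors, by 0.28 (SE 0.19, adjusted p = 0.545). Xaf1, a protein linked to cell death, was detected on 0 arrays.

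**Figure D2:**
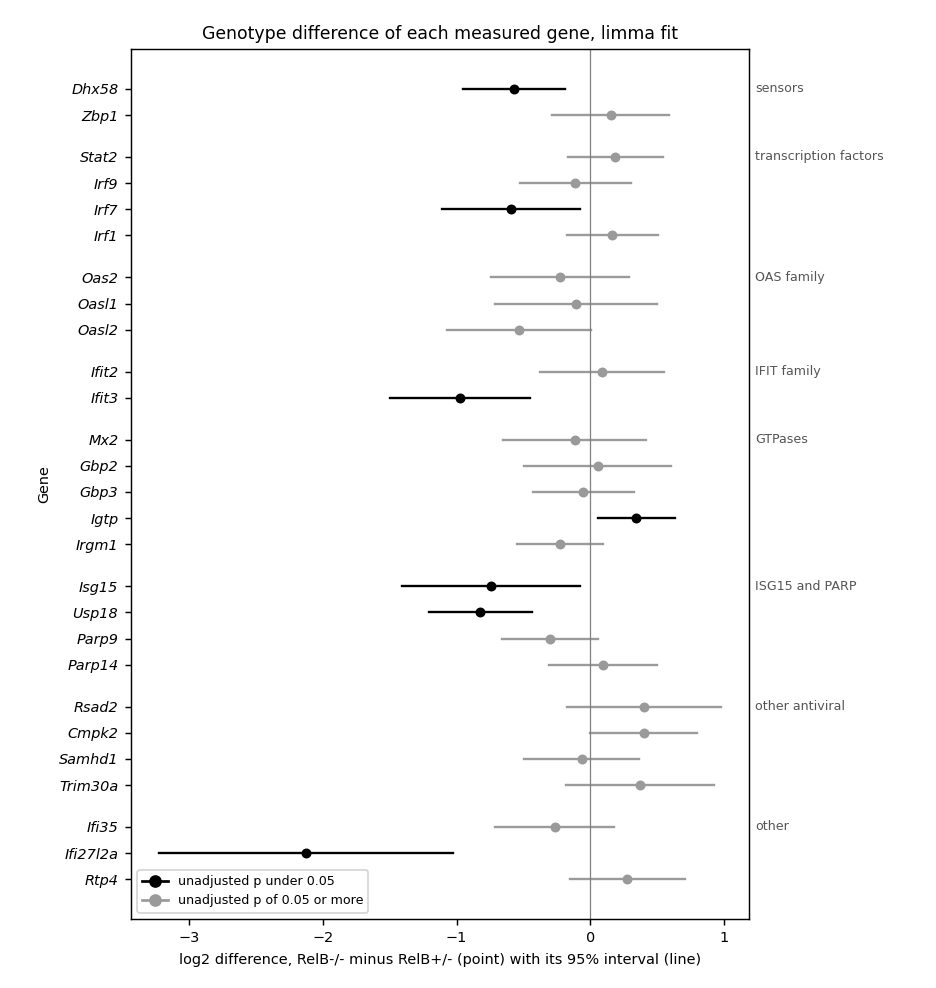
Log2 difference between RelB-/- and RelB+/- thymus (x axis, point) with its 95% interval from the limma fit (line) for the 27 measured genes grouped by role (y axis), in black where the unadjusted p was under 0.05. The 7 black genes run from -2.12 for Ifi27l2a to 0.34 for Igtp, and 6 of them are on the negative side.

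Values of Ifi27l2a also followed the place of the array on the chip. Within RelB-/- mice the level was 7.35, 8.75 and 9.15 at positions B, D and F, and within RelB+/- mice it was 9.85, 10.21, 10.70 and 11.40 at positions A, C, E and G. Such a steady rise in both genotypes was seen for 1 of the 27 genes and for 2.01% of all genes, and a steady fall in both for 1 gene, Irf1, and for 1.92% of all genes. With position as a covariate Ifi27l2a was called (difference -2.12, limma adjusted p = 0.00498), the only one of the 27 genes called in any alternative. In that fit 90 of all genes were called lower and 14 higher, against 63 and 10 without the covariate. Whether position or the mice set the values of Ifi27l2a cannot be told apart.

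**Figure D3:**
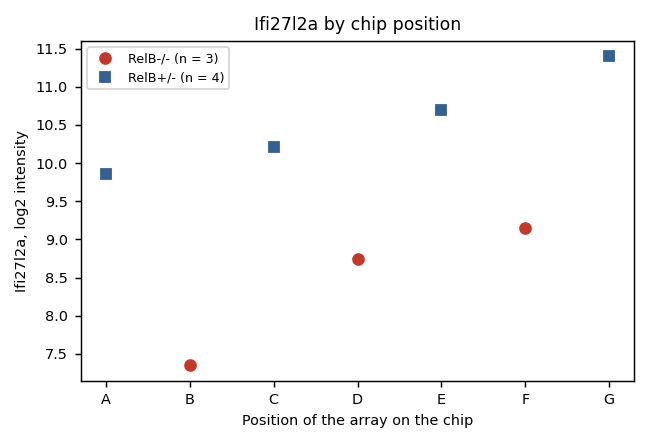
Log2 intensity of Ifi27l2a (y axis) by the position of the array on the chip (x axis, A to G), circles for 3 RelB-/- arrays and squares for 4 RelB+/- arrays. Both sets rise along the chip, from 7.35 to 9.15 over the circles and from 9.85 to 11.40 over the squares, and every circle is below every square.

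Spread between arrays was of the usual size for these genes. The median SD of the 27 genes was 0.22 over RelB-/- and 0.25 over RelB+/- arrays, against 0.20 and 0.25 for all genes. The lowest of the 7 values of a gene fell on RelB-/- 3 for 10 genes and on RelB-/- 1 for 5, but on RelB-/- 2 for 1 gene only. Of all genes, 14.9%, 16% and 10.1% were lowest on RelB-/- 3, 1 and 2. The highest value fell on RelB-/- 2 for 6 genes, and on RelB+/- 2 and RelB+/- 4 for 7 genes each. Of all genes, 15.6% were highest on RelB-/- 2, 9.01% on RelB+/- 2 and 16.6% on RelB+/- 4. Averaged over the 27 genes, the deviation from the RelB+/- mean was -0.26, -0.04 and -0.29 on RelB-/- 1, 2 and 3, against -0.08, 0.04, -0.08 and 0.13 on RelB+/- 1 to 4. By this mean RelB-/- 2 lay inside the RelB+/- range, and the other RelB-/- arrays lay below it. By the median RelB-/- 2 (0.07) lay above every RelB+/- array, the highest being RelB+/- 4 (0.04), so its place depends on the summary.

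**Figure D4:**
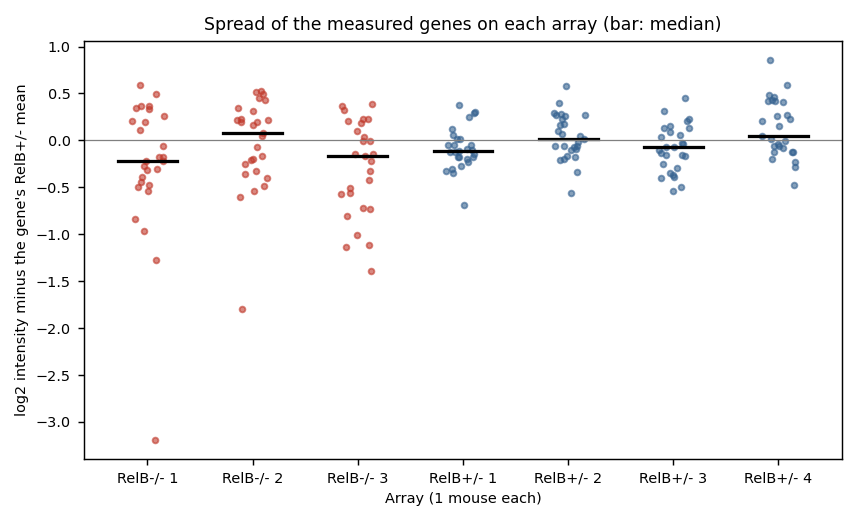
Log2 intensity minus the gene's RelB+/- mean (y axis) of the 27 measured genes on each array (x axis, 1 mouse each), with 1 point per gene and a bar at the median. The medians are -0.22, 0.07 and -0.17 on RelB-/- 1, 2 and 3, against -0.11, 0.01, -0.08 and 0.04 on RelB+/- 1 to 4, and the lowest point is Ifi27l2a on RelB-/- 1.

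Leaving out each array in turn gave 0 called genes among the 27 every time. At an unadjusted p under 0.05, 4 to 6 were lower and 0 to 2 higher, and the median difference lay between -0.14 and -0.02. In the same refits 428 to 716 of all 9569 genes were lower and 390 to 829 higher at that threshold. Usp18, Ifi27l2a, Ifit3 and Dhx58 stayed under that threshold in 7 of 7 refits, Igtp in 4, and Irf7 and Isg15 in 3 each. The difference of Ifi27l2a moved most, to -1.59 without RelB-/- 1 and to -2.49 without RelB-/- 3. For Isg15 it was -0.99 without RelB-/- 2 and -0.54 without RelB-/- 3. Among genes above that threshold, Oas2 moved to -0.06 without RelB-/- 3, Rsad2 to 0.23 without RelB+/- 3, Trim30a to 0.18 without RelB+/- 2, Ifi35 to -0.12 without RelB+/- 3 and Rtp4 to 0.16 without RelB+/- 1. Both arrays that held heart muscle transcripts were also left out, an alternative chosen after seeing the data. Then 3 of the 27 genes were lower and 0 higher at an unadjusted p under 0.05, and the median of the 27 was -0.04. Among all 9569 genes 669 were lower and 603 higher at that threshold, against 601 and 652 with all 7 arrays. The 3 lower genes of the 27 were Usp18 (-0.67), Ifi27l2a (-2.60) and Ifit3 (-0.93). Dhx58 (-0.36), Irf7 (-0.47), Isg15 (-0.35) and Igtp (0.37) no longer passed that threshold, and Rsad2 stood at 0.60 and Trim30a at 0.17. In that refit 23 of all genes were called lower and 2 higher.

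**Figure D5:**
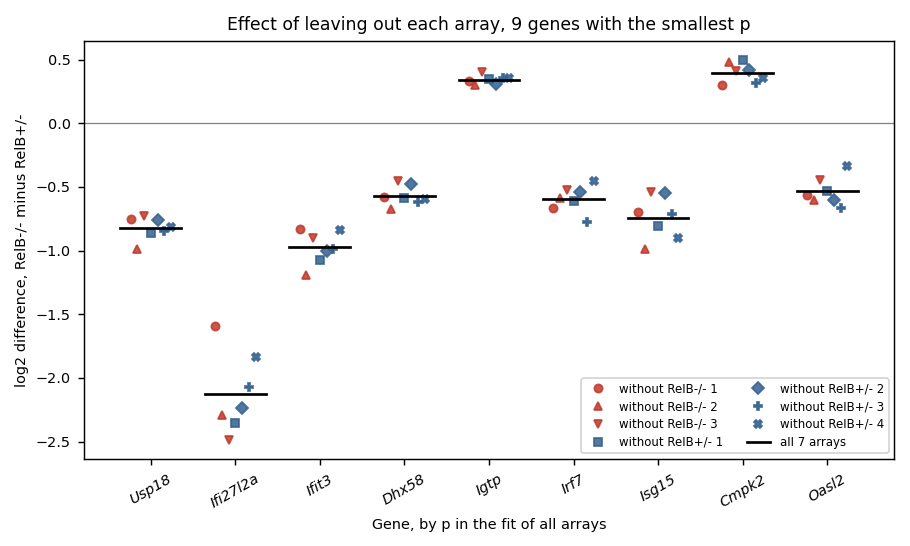
Log2 difference between RelB-/- and RelB+/- thymus (y axis) of the 9 genes with the smallest p (x axis), with 1 symbol for each array left out and a black line for all 7 arrays. Every symbol lies on the same side of 0 as its line, with Usp18 between -0.99 and -0.73 and Ifi27l2a between -2.49 and -1.59.

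Probes of the same gene gave a further view of the spread. For 7 genes more than 1 probe passed the filter, and of 10 such further probes 6 had the sign of the brightest one, with differences from -0.88 to -0.01. The 4 with the opposite sign belonged to Irf1, with 3, and to Ifit2, with 1.

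The genes were also split by whether they stood on a chosen list of interferon-gamma inducible genes. Induction by either interferon was not measured, so the split does not separate the 2 responses. The list of interferon-gamma inducible genes (Irf1, Gbp2, Gbp3, Igtp, Irgm1 and Iigp1) had 5 measured members with a median difference of 0.05, and 1 of them was higher and 0 lower at an unadjusted p under 0.05. The other 22 measured genes had a median of -0.11, with 6 lower (27.3%) and 0 higher. Over all genes 6.28% were lower and 6.81% higher at that threshold, with a median of 0.03. In the interferon-gamma list 1 gene alone makes 20%. Whether the 2 lists differ was not tested.

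Upstream of these genes, the interferons were largely below detection. Of 16 ligand genes with a probe, 8 were detected on no array, and 2, Ifna1 and Ifna6, passed the filter. Ifna1 differed by 0.27 (SE 0.27, limma adjusted p = 0.676) and Ifna6 by 0.01 (SE 0.19, adjusted p = 0.992), though near-identical alpha genes may share these probes. Ifnb1, chosen after its values were seen, passed detection on no RelB-/- array (0 of 3), against 1 of 4 RelB+/- arrays. The better detected Ifng probe, likewise chosen, did so on 0 of 3 RelB-/- arrays, against 2 of 4 RelB+/- arrays, and the other Ifng probe on no array. Other ligands went both ways. Ifna2 and Ifne passed on 1 RelB+/- array only, while Ifna4, 1 Ifnz probe and a further Ifna6 probe passed on 1 RelB-/- array only. No direction is read from these detections. Of 5 measured receptor genes 0 were called, the smallest p being those of Ifngr2, a chain of the interferon-gamma receptor (0.32, SE 0.17, limma adjusted p = 0.452), and Ifnlr1, a chain of the interferon-lambda receptor (-0.36, SE 0.23, adjusted p = 0.518). The single probe of Ifnar1 was detected on no array. Averaging all detected probes turned the sign of both Ifngr2 and Ifnlr1, to -0.04 and 0.01.

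Signal carriers and sensors also gave no call. Among 9 measured JAK-STAT genes 0 were called and the median was -0.10, with Pias1 at 0.42 (SE 0.20, limma adjusted p = 0.427) and Pias3 at -0.30 (SE 0.17, adjusted p = 0.474), both inhibitors of STAT factors. Among 6 other IRF genes and their partners 0 were called, with Irf2bp1, a corepressor of Irf2, at 0.20 (limma adjusted p = 0.544) and Irf2, a factor that binds the same element as Irf1, at 0.11 (adjusted p = 0.740). Of 13 measured genes of nucleic acid sensing 0 were called, while 4 (30.8%) were higher and 0 lower at an unadjusted p under 0.05, against 6.81% and 6.28% of all genes. Aim2, a sensor of cytosolic DNA, read 5.84, 6.18 and 5.94 in RelB-/- thymus, against 5.41, 5.41, 5.42 and 5.32 in RelB+/- thymus. Its groups were separate, with a difference of 0.59 (SE 0.14, limma adjusted p = 0.131). Traf6, a ubiquitin ligase below Toll-like receptors, differed by 0.62 (SE 0.21, limma adjusted p = 0.301).

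A wider list of 85 other interferon-stimulated genes had 49 measured members, of which 2 were called lower and 0 higher, against 0.658% and 0.105% of all genes. At an unadjusted p under 0.05 it had 10 lower (20.4%, against 6.28% of all genes) and 3 higher (6.12%, against 6.81%), and its median difference was -0.13. Cxcl10, a chemokine that attracts activated T cells, read 4.98, 5.22 and 5.42 in RelB-/- thymus, against 6.49, 6.64, 6.44 and 6.18 in RelB+/- thymus. The groups were well apart, with 2 of 3 RelB-/- arrays and 4 of 4 RelB+/- arrays above background, and Cxcl10 fell by 1.23 on the log2 scale in RelB-/- thymus (SE 0.17, limma adjusted p = 0.0151). That call was lost without RelB-/- 1, RelB-/- 2, RelB+/- 1 or RelB+/- 3, where the highest adjusted p was 0.0719. The authors' processed values (-0.28, adjusted p = 0.137) and uncorrected signals (-0.45, adjusted p = 0.0814) gave no call either, nor did a replicate block (adjusted p = 0.0841) or leaving out both heart muscle arrays (adjusted p = 0.0698).

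Oas1g, a relative of the Oas genes above, read 6.07, 6.69 and 6.40 in RelB-/- thymus, against 7.27, 7.31, 7.45 and 7.51 in RelB+/- thymus. The RelB+/- arrays lay close together and above all RelB-/- arrays, and Oas1g fell by 1.00 on the log2 scale in RelB-/- thymus (SE 0.17, limma adjusted p = 0.0458). A second detected probe of Oas1g differed by -1.11, but near-identical Oas1 copies may share these probes. The call held in 1 of the 7 refits that left out an array, the one without RelB-/- 2 (adjusted p = 0.0447), and in 3 of 12 other alternatives, with an adjusted p of up to 0.212. Its difference was -1.15 to -0.84 with 1 array left out, and smallest, at -0.37, with the authors' processed values.

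Markers of several thymus cell types differed between the genotypes on the same arrays, and sums below are of linear levels. Of 8 measured medullary epithelial markers 4 were called lower and 0 higher, and their summed level was 1309 to 2045 in RelB-/- and 6299 to 7549 in RelB+/- thymus. In RelB+/- thymus that sum mostly follows the brightest marker, Ccl21a, with log2 means of 9.04 in RelB-/- and 12.19 in RelB+/- thymus. Of the 8 differences 7 were negative, the smallest that of Cldn4 (-0.12), and 1 was positive, that of Cd80 (0.17). Conventional dendritic cell markers had 2 of 8 called lower, Fscn1 and Ccl17, with sums of 526 to 581 in RelB-/- and 924 to 1228 in RelB+/- thymus. Of these markers 5 had negative differences and 3 did not, namely Ccr7 (0.09), Zbtb46 (0.06) and Xcr1 (0.02). Itgax, Flt3 and Cd209a of the same list were detected on no array. The natural killer and NKT list had 2 of 9 called lower (1671 to 1877 in RelB-/- and 1746 to 2593 in RelB+/- thymus, with Ncr1, Gzma, Gzmb and Eomes detected on no array). Of 5 B cell markers 1 was called lower, with sums of 837 to 1049 in RelB-/- and 971 to 1652 in RelB+/- thymus. Granulocyte markers had 3 of 13 called higher (6926 to 26220 in RelB-/- and 992 to 8892 in RelB+/- thymus), and macrophage markers 1 of 11 higher (6447 to 8091 in RelB-/- and 6652 to 10290 in RelB+/- thymus). The called macrophage marker was Fcgr4 (difference 2.47), whereas C1qc was lower at an unadjusted p under 0.05 (-0.47). The macrophage list had 6 negative differences and a median of -0.06, so it gave no common direction.

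Plasmacytoid dendritic cells are known as a strong source of type I interferon. Of their 8 measured markers 0 were called, and the summed level was 13530 to 15430 in RelB-/- and 11320 to 15220 in RelB+/- thymus, with Ccr9 detected on no array. That sum mostly follows the brightest marker, Ly6d, with log2 means of 13.32 in RelB-/- and 13.33 in RelB+/- thymus. Cox6a2 was highest on both arrays that held heart muscle transcripts, at 11.30 on RelB-/- 3 and 10.17 on RelB+/- 2. Differences of the 8 markers ran from -0.01 to 0.79, and the number of these cells was not measured. Thymocyte markers, which check the labelled tissue, had 0 of 10 called and sums of 76890 to 82600 in RelB-/- and 69850 to 75890 in RelB+/- thymus, and Cd8a was detected on no array. Of 7 cortical epithelial markers 0 were called (7500 to 10350 in RelB-/- and 9294 to 13140 in RelB+/- thymus). The part of these cell types in the values of the interferon-stimulated genes was not tested.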

How the data were processed

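Thymus RNA was hybridised as biotin-labelled cRNA, 1 array per mouse, and groups follow the genotype labels. The authors deposited raw probe intensity on a linear scale without normalization, and a detection p-value per probe and array, per the file headers. Per the submitters' processing notes GenomeStudio was used, with version and export settings not given in the sources used here. The authors also deposited processed values resembling log2 values, whose transformation is not given in the sources used here. Their median was 7.65 on each array and their probe order followed the raw signal (Spearman at least 0.999997), and they served as an alternative.

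With limma 3.58.1 in R 4.3.3, raw intensity was background-corrected by normexp from the detection p-values (offset 16), quantile-normalized and log2-transformed. Of 25695 probes, 23976 had 1 symbol in the platform annotation, 1719 none and 0 several. Probes were kept (12465) if detected, at p under 0.05, on 3 or more arrays, and the probe with the highest mean stood for each gene, giving 9569 genes, 725 of them unnamed probes. Genotypes were compared by lmFit and eBayes without trend, 2-sided, with Benjamini-Hochberg adjustment. Further probes come from a fit over all kept probes. A gene undetected on all arrays of a group has only a bound, set by the lowest detected signal. Offset and background shrink differences of dim genes.

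The genes, lists and tests were chosen with earlier results of these data known. Every one of the 36 genes was to be named, with values on each array for the 12 smallest p, the 5 largest within-genotype SDs and the 5 highest means. Relb was added, and from each related list up to 4 called genes, or the 2 with the smallest p. Same-numbered mice did not deviate together (correlations 0.318, -0.179 and -0.201), so numbers were not taken as pairs. Other settings tried were the authors' values, no background correction, another offset, cyclic loess, no filter, an intensity trend, array weights, other probe choices, a replicate block, chip position and each array left out. The test was checked on simulated data. Figures were drawn with matplotlib 3.10.9.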

Additional observations from a re-analysis of the deposited data

Results flagged for a closer look

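Irf1 was high on 1 RelB+/- array. RelB+/- 1 read 12.24, and the nearest of the other RelB+/- arrays read 11.88, a gap of 0.854 of the whole RelB+/- range. Aim2 was low on 1 RelB+/- array, with RelB+/- 4 at 5.32 and the nearest at 5.41, a gap of 0.895 of a narrow range that ended at 5.42. The 4 RelB+/- arrays were examined in this way for 40 named genes, and chance alone marks about 1 in 20 groups.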

How the results depend on the processing

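Of the 27 measured genes, 18 kept their sign in all 19 alternatives (11 negative, 7 positive) and 9 did not. Across alternatives 3 to 7 were lower and 0 to 2 higher at an unadjusted p under 0.05, and 0 were called except under chip position, where 1 was called lower. At that unadjusted threshold 428 to 797 of all genes were lower and 390 to 1026 higher. The test covered 18312 genes without the filter and 9569 otherwise. Counts of called genes among all genes moved by more than 1.5 times under several alternatives. Genes called lower numbered 23 with the authors' values, 23 with a replicate block, 23 without both arrays that held heart muscle transcripts (added after seeing the data) and 34 to 64 with 1 array left out, against 63. Genes called higher numbered 6 without background correction, 2 with the authors' values, 6 without a detection filter, 1 with the replicate block, 2 without the heart muscle arrays and 3 to 8 with 1 array left out, against 10. Counts also rose, to 90 lower and 14 higher under chip position, the most of any alternative, and to 69 and 11 with array weights. Signs turned for Irf9 (0.093), Oasl1 (0.21), Mx2 (0.025) and Gbp2 (-0.057) without the heart muscle arrays, for Irf1 (-0.19), Ifit2 (-0.023), Ifngr2 (-0.043) and Ifnlr1 (0.0090) with the mean of detected probes, for Oasl1 with array weights (0.033), for Ifna6 with cyclic loess (-0.0049), and with the replicate block for Samhd1 (0.0035) and Ifna6 (-0.037). With 1 array left out, ranges that spanned zero were -0.42 to 0.12 for Oasl1, -0.042 to 0.22 for Ifit2, -0.36 to 0.080 for Mx2, -0.094 to 0.28 for Gbp2, -0.19 to 0.077 for Gbp3, -0.016 to 0.22 for Parp14, -0.18 to 0.056 for Samhd1 and -0.14 to 0.12 for Ifna6. The cause was not tested. The block, for numbers that the check did not pair, called none of the 27 genes. Few arrays and dim signals limit all of these values, and 7 of the 34 genes with a probe gave no measurement.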
